A study of Mus musculus with 12 samples.

Results

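Plasma cell identity genes are the genes by which antibody-secreting cells are usually recognised, and 8 of them were followed here: *Jchain*, *Mzb1*, *Sdc1*, *Tnfrsf17*, *Slamf7*, *Prdm1*, *Irf4* and *Eaf2*. They were found by their symbol in the expression tables of lung and spleen, where they are 8 of 22924 gene IDs listed in either tissue, and all 8 are listed in both. Transcripts were measured by RNA sequencing in lung and spleen of the same mice, 3 wild-type (WT) and 3 β3-/-, which gives 12 libraries with 1 per mouse and tissue. All mice were 8 to 10 weeks old, on the C57BL/6 background, kept under specific pathogen free conditions and left untreated. The β3-/- mice lack integrin β3, encoded by *Itgb3*, in every cell, so a difference cannot be assigned to a cell lineage. They came from another source than the purchased WT mice, and the Y-linked gene *Ddx3y* was listed at 0 in every β3-/- library against 16.9 to 25.2 FPKM in every WT library, so that genotype, source and sex cannot be told apart. *Itgb3* itself was lower in the β3-/- libraries, at 1.29 to 1.94 FPKM in lung against 3.68 to 4.39 in WT lung and at 3.52 to 4.02 FPKM in spleen against 8.50 to 10.6 in WT spleen. FPKM are fragments scaled by the length of the gene and by the mapped fragments of the library, so levels of different genes can be set side by side.

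A plasma cell arises when an activated B cell stops its B cell programme and turns to the secretion of antibody. Blimp-1 (*Prdm1*) and IRF4 drive this switch, and Blimp-1 shuts off B cell genes such as *Pax5*, *Bcl6* and *Ciita*. The endoplasmic reticulum then expands, and the J chain is built into polymeric IgA and IgM so that these can be carried across mucosal epithelium, in the airways among other places. Survival depends on signals such as APRIL, which binds BCMA, the product of *Tnfrsf17*. Several of the 8 genes are not restricted to plasma cells. Syndecan-1 (*Sdc1*) is made by epithelium, *Slamf7* by NK cells and dendritic cells, *Prdm1* and *Irf4* by T cells and myeloid cells, and *Mzb1* by marginal zone B cells and plasmacytoid dendritic cells.

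Of the 8 genes, *Jchain* and *Tnfrsf17* had the largest fold differences between genotypes, in both tissues. The stretch just before the RefSeq start of each is shown so that the reader can see which of the short motifs bound by factors of this lineage it holds. Each is the 250 bases before the RefSeq start, written 5′ to 3′ on the strand of the gene, from the RefSeq promoter table of GRCm38.p6, and capitals mark the motifs found.
Jchain: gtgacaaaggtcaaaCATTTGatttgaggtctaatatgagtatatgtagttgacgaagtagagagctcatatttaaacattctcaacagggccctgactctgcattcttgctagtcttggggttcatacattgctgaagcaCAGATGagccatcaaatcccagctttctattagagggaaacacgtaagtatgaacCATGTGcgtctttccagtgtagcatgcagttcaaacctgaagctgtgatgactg
Tnfrsf17: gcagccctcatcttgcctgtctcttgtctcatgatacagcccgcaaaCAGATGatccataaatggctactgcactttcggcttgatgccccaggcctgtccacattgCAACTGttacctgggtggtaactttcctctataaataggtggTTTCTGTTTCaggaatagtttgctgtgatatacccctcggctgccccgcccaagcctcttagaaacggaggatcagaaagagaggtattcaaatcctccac
In GRCm39, the build to which the reads were aligned, these letters lie at chr5:88675757-88676006 on the minus strand for *Jchain* and at chr16:11131423-11131672 on the plus strand for *Tnfrsf17*. The window of *Tnfrsf17* lies inside the GENCODE span of the gene, which begins farther upstream, at 11118528, so it precedes the RefSeq start but not the start of the gene model whose coordinates are given below. No annotated exon overlaps either window. Motifs were searched on both strands. CANNTG, the E-box bound by E proteins, occurs 3 times before *Jchain* and 2 times before *Tnfrsf17*. It is common, with a match in 66.2% of the 32851 promoter windows of this length, and 6 of the 7 members with a RefSeq window have it. GAAA followed after any 2 bases by a second GAAA, a motif bound by IRF factors and also by Blimp-1, was found on the opposite strand before *Tnfrsf17*, where the printed strand reads TTTCTGTTTC. It was found in 2.98% of all windows and in no window of another member. GGAA followed in the same way by GAAA (2.30% of all windows), bound by IRF4 together with PU.1 or Spi-B, ATTTGCAT (1.60%), the octamer of immunoglobulin promoters, and TGACGTG (1.65%), which holds the core bound by XBP1, were in none of the members' windows. The motif matches are letters only, and no binding was measured.

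In WT mice, 6 of the 8 genes were lower in lung than in spleen, *Sdc1* was higher, and *Prdm1* was close to equal. The tables of the tissues were made separately and list different sets of unnamed gene models, which bears on any level compared between tissues. Here and below, genes with at least 0.1 FPKM in at least 3 libraries were tested with limma on the log2 of FPKM plus 0.1, and all 8 members passed this filter in each of the 4 comparisons. A gene is said to have passed where its p, adjusted over all tested genes, was below 0.05. Between WT lung and WT spleen 73.2% of all tested genes passed, 39.3% as lower and 33.8% as higher in lung, so that the 7 of 8 members that passed have a share close to the background. The same number passed under every alternative processing that was run. Levels in bulk tissue cannot tell fewer cells of a type from less RNA per cell.

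The order of the levels was different in each tissue. In WT lung *Sdc1* was highest with 71.5 ± 5.88 FPKM (SD, n = 3), followed by *Jchain* and *Mzb1*, whose libraries overlapped. *Prdm1*, *Slamf7* and *Irf4* came next and overlapped each other, and *Eaf2* and *Tnfrsf17* were lowest and overlapped. In WT spleen *Jchain* was highest, with *Mzb1* below it, then *Irf4* and *Slamf7* with overlapping libraries, *Sdc1*, *Eaf2*, and at the bottom *Prdm1* and *Tnfrsf17*, again overlapping. In β3-/- lung *Jchain* stood above *Sdc1*. In β3-/- spleen the lower end closed up, since *Sdc1*, *Eaf2*, *Tnfrsf17* and *Prdm1* each overlapped with the next. The 8 levels of a library summed to 86.5 to 106 FPKM in WT lung and 296 to 332 FPKM in β3-/- lung, and to 891 to 990 FPKM in WT spleen and 2639 to 2842 FPKM in β3-/- spleen, with *Jchain* as the main part of each sum except in WT lung.

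**Figure D1:**
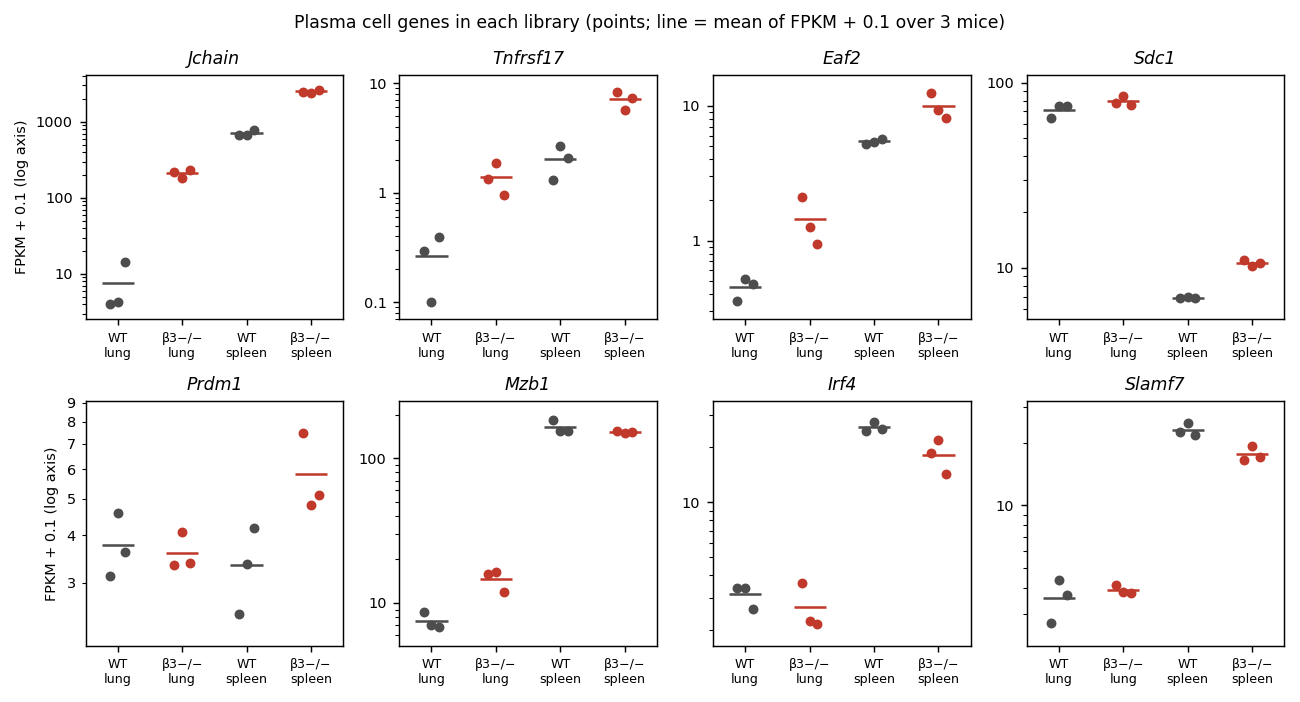
FPKM plus 0.1 of the 8 genes in each of the 12 libraries, on log axes that differ between panels. Each point is the library of 1 mouse, black for WT and red for β3-/-, and the line is the mean of 3. *Jchain* lies between 3.92 and 14.2 FPKM in WT lung and between 182 and 234 FPKM in β3-/- lung, while *Prdm1*, *Irf4* and *Slamf7* overlap between the genotypes in lung.

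The members that serve the making of antibody are *Jchain* and *Mzb1*. *Jchain* (ENSMUSG00000067149, minus strand of chr5:88667668-88675750, GRCm39) encodes the joining chain of IgA and IgM polymers. Lungs 1, 2 and 3 had 3.92, 4.22 and 14.2 FPKM in WT mice and 218, 182 and 234 FPKM in β3-/- mice. The genotypes were far apart, and WT lung 3 was above the other WT lungs. The fold was 33.5, a log2 difference of 5.07 (SE 0.47, 95% interval 3.95 to 6.18, adjusted p = 0.011). In lung 0.296% of all tested genes passed as higher in β3-/- mice, and *Jchain* was the only member of the 8 that did.

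WT spleens 1, 2 and 3 had 679, 667 and 771 FPKM of *Jchain*, and β3-/- spleens had 2474, 2418 and 2628 FPKM. Every β3-/- spleen was above every WT spleen, and β3-/- lungs stayed below WT spleens. The fold was 3.56, a log2 difference of 1.83 (SE 0.12, 95% interval 1.55 to 2.11, adjusted p = 6.5e-04). The difference of the log2 effects, spleen minus lung, was −3.24 (SE 0.52, 95% interval −4.37 to −2.10, adjusted p = 0.035), so the rise was smaller in spleen on this scale.

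*Igha*, the constant region of the IgA heavy chain to which the J chain is joined, had 19.4, 23.7 and 64.5 FPKM in WT lungs and 1444, 1111 and 1354 FPKM in β3-/- lungs. The WT lung that was high for *Jchain* was also high for *Igha*. *Jchain* divided by *Igha* was 0.178 to 0.219 in WT lungs and 0.151 to 0.173 in β3-/- lungs. In WT spleens it was 2.28 to 3.42, and in β3-/- spleens, where *Igha* reached 10321 to 12427 FPKM, it was 0.195 to 0.255. By this ratio WT spleen stood apart from the other 3 groups, whose ratios lay within 0.151 to 0.255. Which group stood apart depended on the divisor. *Jchain* divided by *Igkc*, the kappa light chain, was 0.0104 to 0.0479 in WT and 0.131 to 0.137 in β3-/- lungs. In spleens it was 0.0916 to 0.0989 in WT and 0.139 to 0.163 in β3-/- mice. *Ighm*, the heavy chain of IgM, which the J chain also joins, had 5244, 5343 and 5626 FPKM in WT spleens and 4572, 3985 and 2575 FPKM in β3-/- spleens. In lungs it had 187, 254 and 160 FPKM in WT and 182, 211 and 210 FPKM in β3-/- mice. These ratios were chosen after the values had been seen and were not tested.

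**Figure D2:**
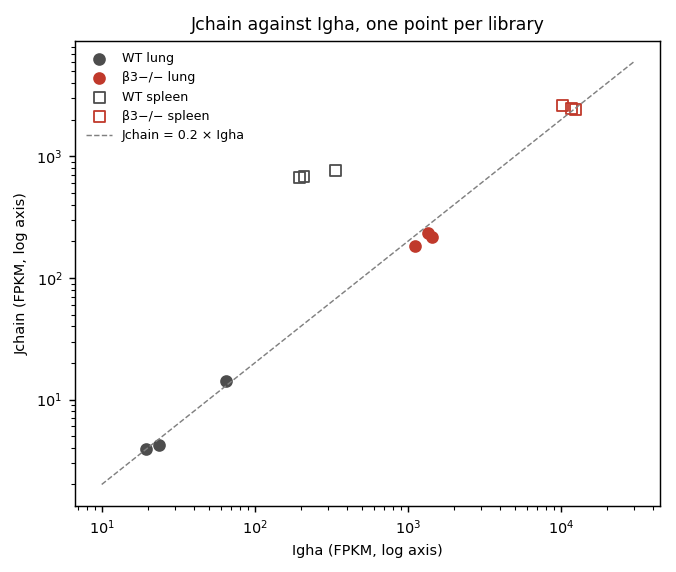
*Jchain* against *Igha* in FPKM, both on log axes, with 1 point per library (circles lung, squares spleen, black WT, red β3-/-) and a dashed guide where *Jchain* is 0.2 times *Igha*. The lung libraries and the β3-/- spleens lie near the guide, with ratios of 0.151 to 0.255, and the 3 WT spleens lie above it at 2.28 to 3.42.

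*Mzb1* (ENSMUSG00000024353, minus strand of chr18:35780319-35782642) encodes a chaperone of the endoplasmic reticulum that helps to assemble and secrete immunoglobulin. Lungs 1, 2 and 3 had 8.49, 6.91 and 6.76 FPKM in WT mice and 15.7, 16.4 and 11.8 FPKM in β3-/- mice. The lung groups did not overlap, but the log2 difference of 0.97 (SE 0.16, 95% interval 0.59 to 1.34) did not pass the test (adjusted p = 0.093). Spleens 1, 2 and 3 had 184, 154 and 154 FPKM in WT mice and 155, 150.5 and 152 FPKM in β3-/- mice. The spleen groups overlapped, with a log2 difference of −0.10 (SE 0.10, 95% interval −0.33 to 0.13, adjusted p = 0.48), which became 0.08 with median-of-ratios scaling. The effects in the tissues differed by −1.07 (SE 0.18, 95% interval −1.47 to −0.66, adjusted p = 0.045). *Jchain* divided by *Mzb1* was 3.7 to 5.0 in WT and 16.0 to 17.3 in β3-/- spleens, so the antibody assembly genes did not keep a fixed ratio. *Mzb1* overlaps *Gm50318* on the same strand, and how fragments of overlapping genes were assigned is not given in the sources used here.

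Between the tissues, 2 of the 8 members passed for a difference of the genotype effect, *Jchain* and *Mzb1*, both with the smaller effect in spleen. In this comparison 0.202% of all tested genes passed in that direction. With the mouse as a block, since lung and spleen came from the same animals, *Jchain* still passed (adjusted p = 0.047) and *Mzb1* did not (adjusted p = 0.055). Neither passed without the WT spleen 2 library (adjusted p = 0.13 for both), which held pancreatic transcripts. *Jchain* passed under 12 and *Mzb1* under 9 of 25 alternatives, and both kept their sign under all of them. The 6 other members did not pass, with *Sdc1* nearest at 0.47 (SE 0.11, adjusted p = 0.072).

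Among the receptors on the surface, *Tnfrsf17* (ENSMUSG00000022496, plus strand of chr16:11118528-11137938) encodes BCMA, the receptor for APRIL. The lungs of WT mice 1 and 3 had 0.195 and 0.293 FPKM and that of mouse 2 was listed at 0, whereas β3-/- lungs had 1.23, 1.75 and 0.848 FPKM. All values in lung were low and the groups did not overlap. The log2 difference was 2.55 (SE 0.56, 95% interval 1.22 to 3.89, adjusted p = 0.16), which did not pass. WT spleens 1, 2 and 3 had 1.21, 2.57 and 1.99 FPKM, and β3-/- spleens had 8.26, 5.55 and 7.24 FPKM. Here the fold was 3.62, a log2 difference of 1.85 (SE 0.28, 95% interval 1.20 to 2.51, adjusted p = 0.024). *Tnfrsf13b*, which encodes TACI, a receptor for the same ligand that is carried mainly by B cells, went the other way in spleen, from 85.6, 89.3 and 75.8 FPKM to 46.4, 63.0 and 40.8 FPKM (log2 difference −0.76, SE 0.16, adjusted p = 0.040).

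*Sdc1* (ENSMUSG00000020592, plus strand of chr12:8820854-8843725) encodes syndecan-1, or CD138, a heparan sulfate proteoglycan by which plasma cells are sorted. Lungs had 64.7, 75.1 and 74.6 FPKM in WT mice and 77.2, 84.8 and 75.7 FPKM in β3-/- mice. The lowest β3-/- lung was just above the highest WT lung, and the log2 difference of 0.15 (SE 0.09, 95% interval −0.06 to 0.36, adjusted p = 0.54) did not pass. Spleens had 6.78, 6.84 and 6.77 FPKM in WT mice and 10.9, 10.1 and 10.6 FPKM in β3-/- mice. The WT spleens were almost equal and the fold was 1.54, a log2 difference of 0.62 (SE 0.10, 95% interval 0.40 to 0.85, adjusted p = 0.026). In WT mice the level in lung was 10.4 times that in spleen (log2 difference 3.37, SE 0.08, adjusted p = 1.9e-07), where 9 markers of lung epithelium together reached 42807 to 76514 FPKM in lungs and 9.68 to 10.9 FPKM in spleens. The lung sum was mostly *Scgb1a1* and *Sftpc*, so it says little of the other markers. *Epcam*, for one, had 29.7 to 43.5 FPKM in WT lungs and 4.54 to 5.12 FPKM in WT spleens. The part of epithelium in the lung level of *Sdc1* was not tested. *Gm4755* overlaps it on the other strand.

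*Slamf7* (ENSMUSG00000038179, minus strand of chr1:171459966-171480603) encodes a surface receptor of the SLAM family. Lungs had 2.60, 4.26 and 3.58 FPKM in WT mice and 4.04, 3.70 and 3.66 FPKM in β3-/- mice, which overlap. The log2 difference in lung was 0.15 (SE 0.20, 95% interval −0.31 to 0.62, adjusted p = 0.81). Spleens had 22.6, 24.8 and 21.8 FPKM in WT mice and 16.5, 19.2 and 17.0 FPKM in β3-/- mice. All β3-/- spleens were below all WT spleens, at a log2 difference of −0.39 (SE 0.10, 95% interval −0.63 to −0.15), which missed the threshold (adjusted p = 0.053) and passed under 6 of 18 alternatives. *Gm37787*, on the other strand, overlaps *Slamf7*.

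The regulators of transcription were *Prdm1*, *Irf4* and *Eaf2*. *Prdm1* (ENSMUSG00000038151, minus strand of chr10:44313171-44404497) encodes Blimp-1. Lungs had 3.01, 4.50 and 3.52 FPKM in WT mice and 3.24, 3.98 and 3.27 FPKM in β3-/- mice. The values overlapped completely, with a log2 difference of −0.06 (SE 0.18, 95% interval −0.49 to 0.38, adjusted p = 0.93). Spleens had 2.38, 3.26 and 4.08 FPKM in WT mice and 7.39, 4.72 and 5.03 FPKM in β3-/- mice. Every β3-/- spleen was above every WT spleen, but both groups were spread out and the log2 difference of 0.80 (SE 0.25, 95% interval 0.23 to 1.38) did not pass (adjusted p = 0.070), nor under any of 18 alternatives.

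*Irf4* (ENSMUSG00000021356, plus strand of chr13:30933209-30950959) encodes a factor needed in activated B cells as well as in plasma cells. Lungs had 3.30, 3.32 and 2.51 FPKM in WT mice and 3.50, 2.14 and 2.05 FPKM in β3-/- mice. The groups overlapped, and the log2 difference was −0.27 (SE 0.24, 95% interval −0.85 to 0.31, adjusted p = 0.72). Spleens had 24.5, 27.3 and 24.9 FPKM in WT mice and 18.4, 21.8 and 14.1 FPKM in β3-/- mice. The β3-/- spleens were all lower, at a log2 difference of −0.52 (SE 0.16, 95% interval −0.89 to −0.15, adjusted p = 0.071).

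*Eaf2* (ENSMUSG00000022838, minus strand of chr16:36613246-36695365) encodes a partner of the ELL elongation factors, of which ELL2 acts on immunoglobulin heavy chain transcripts in plasma cells. Lungs had 0.256, 0.421 and 0.376 FPKM in WT mice and 2.01, 1.16 and 0.839 FPKM in β3-/- mice. The groups did not overlap, but the log2 difference of 1.61 (SE 0.36, 95% interval 0.76 to 2.45) did not pass (adjusted p = 0.16). Spleens had 5.14, 5.31 and 5.60 FPKM in WT mice and 12.3, 9.21 and 7.99 FPKM in β3-/- mice. The WT spleens lay close together and all β3-/- spleens were above them, a fold of 1.80 and a log2 difference of 0.85 (SE 0.17, 95% interval 0.45 to 1.24, adjusted p = 0.036). *Iqcb1*, which is read from the opposite strand, overlaps *Eaf2*.

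**Figure D3:**
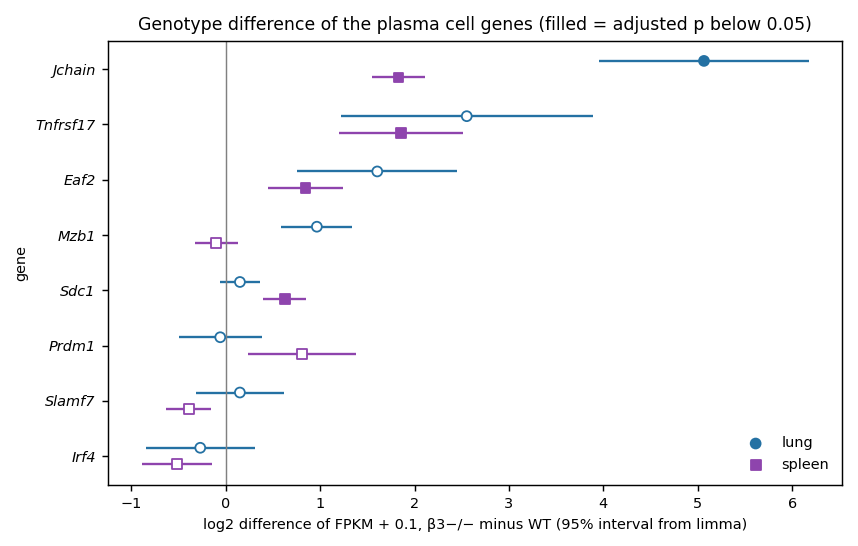
Log2 difference of FPKM plus 0.1 between β3-/- and WT mice for the 8 genes, circles for lung and squares for spleen, with 95% intervals from limma and filled symbols for an adjusted p below 0.05. *Jchain* lies at 5.07 in lung and 1.83 in spleen, and *Slamf7* and *Irf4* lie at −0.39 and −0.52 in spleen.

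Counted together, 1 of the 8 members passed in lung and 4 in spleen, all as higher in β3-/- mice. In lung the groups did not overlap for 5 of the 8, all higher, where 6.86% of all tested genes were higher without overlap. At an unadjusted p below 0.05, 4 of the 8 were higher, against 4.95% of all genes. The median log2 difference of the 8 was 0.56 in lung, and that of all tested genes was −0.02. In spleen 3.66% of all tested genes passed as higher and 5.39% as lower. There 5 members were higher and 2 lower without overlap, against 11.4% and 32.0% of all tested genes, and their median was 0.71 against −0.16. Median-of-ratios scaling moved the median of all genes in spleen to 0.01. Taken relative to the median of all genes, the differences in spleen were 2.02 for *Tnfrsf17*, 1.99 for *Jchain*, 1.01 for *Eaf2*, 0.97 for *Prdm1*, 0.79 for *Sdc1*, 0.06 for *Mzb1*, −0.23 for *Slamf7* and −0.36 for *Irf4*.

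In lung, *Jchain* did not pass without the WT 1, the β3-/- 1 or the β3-/- 3 library (adjusted p = 0.077, 0.064 and 0.059). Lungs also fell into groups of high and low *Ubb*, a ubiquitin gene, and within the high group (2 WT and 1 β3-/-) and the low group (1 WT and 2 β3-/-) the log2 difference of *Jchain* was 5.81 and 3.81. In spleen, WT 2 and β3-/- 2 held pancreatic transcripts, whose markers summed to 1880 and 210 FPKM against 17.8 to 26.2 in the others. Without WT 2, *Jchain* and *Tnfrsf17* passed, and without both libraries *Jchain* alone did (adjusted p = 0.046). A single member also passed without WT 3, β3-/- 1 or β3-/- 3, and it was *Jchain* in each case, while without WT 1 *Jchain* and *Tnfrsf17* did. Without β3-/- 2 there were 6, with *Slamf7* and *Irf4* passing as lower. With 1 spleen library left out, all genes that passed numbered from 59 to 3837, so these counts of members have no fixed background.

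Of the other genes of the plasma cell programme, 16 were examined that serve secretion and survival. None passed in lung, where 4 were higher at an unadjusted p below 0.05, as were 4.95% of all tested genes. The largest difference there was that of *Derl3*, a component of the pathway that clears misfolded proteins from the endoplasmic reticulum, at 1.35 (SE 0.32, adjusted p = 0.18). In spleen 2 of the 16 rose and 2 fell, where 3.66% of all tested genes passed as higher and 5.39% as lower. *Derl3* had 9.07, 11.2 and 8.87 FPKM in WT and 22.5, 21.0 and 17.9 FPKM in β3-/- spleens (log2 difference 1.07, SE 0.13, adjusted p = 0.013). *Xbp1*, which drives expansion of the endoplasmic reticulum, rose by 0.42 (SE 0.09, adjusted p = 0.043). Those that fell, *Tnfrsf13b* and *Pou2af1*, a coactivator at octamer motifs in B cells (−0.48, SE 0.11, adjusted p = 0.046), are genes of B cells as well. Over the alternatives 0 to 6 of the 16 rose in spleen and 0 to 3 fell.

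Immunoglobulin constant genes encode parts of the antibody that plasma cells secrete, and which cells their transcripts came from was not tested. In lung 2 of 11 tested rose, *Igha* by 5.38 (SE 0.43, adjusted p = 0.0074) and *Igkc*, the kappa light chain, by 2.22 (SE 0.17, adjusted p = 0.0074). Of all tested genes 0.296% passed as higher in lung. *Ighg2c* had the largest difference there, 7.37 (SE 1.03), but did not pass (adjusted p = 0.061). It had 0, 0 and 0.377 FPKM in WT and 13.9, 12.2 and 126 FPKM in β3-/- lungs. At an unadjusted p below 0.05, 6 of the 11 were higher in lung, as were 4.95% of all tested genes. In spleen 6 of 12 rose and 1 fell, where 3.66% of all tested genes passed as higher and 5.39% as lower. *Igha* rose most, by 5.57 (SE 0.22, adjusted p = 3.7e-05), and *Ighd*, the IgD of naive B cells, fell by 0.99 (SE 0.22, adjusted p = 0.041). *Ighe*, the heavy chain of IgE, rose by 2.46, those of the IgG classes *Ighg2c*, *Ighg1* and *Ighg2b* by 2.17, 2.14 and 1.89, and *Igkc* by 1.18. *Ighe* was low, at 0, 0.073 and 0.269 FPKM in WT and 1.95, 0.686 and 0.567 FPKM in β3-/- spleens, so its difference depends on the 0.1 FPKM added. Over the alternatives 1 to 7 rose and 0 to 3 fell in spleen, with 3 higher without β3-/- 1, 2 without WT 2 or without β3-/- 3, and 1 without WT 3, without both libraries with pancreatic transcripts or without the filter. In lung 0 to 3 rose, with 0 without WT 1 or without the filter. All immunoglobulin genes together took 0.249% to 0.331% of the summed FPKM in WT lungs and 1.02% to 1.53% in β3-/- lungs, and 5.45% to 6.11% and 11.6% to 12.5% in spleens. With immunoglobulin genes left out of the scaling, *Slamf7* and *Irf4* passed as lower in β3-/- spleen (adjusted p = 0.043 and 0.0498).

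B cell genes, among them the targets that Blimp-1 shuts off, moved with the spleen results. Of 15, 9 passed as lower in β3-/- spleen and none as higher, where 5.39% of all tested genes passed as lower and 3.66% as higher. All 15 were lower at an unadjusted p below 0.05, as were 26.3% of all tested genes. The largest falls were those of *Spib* (−0.95, SE 0.18), *Cxcr5* (−0.92, SE 0.15), *Cd79b* (−0.89, SE 0.17) and *Fcer2a* (−0.88, SE 0.18). *Pax5* had 38.6, 40.0 and 41.7 FPKM in WT and 22.9, 32.7 and 23.3 FPKM in β3-/- spleens. The 15 levels summed to 2601 to 2758 FPKM in WT spleens and 1378 to 2038 FPKM in β3-/- spleens, the highest in β3-/- 2. The count went from 0 to 15 over the alternatives, with 0 without WT 1, WT 2, WT 3, β3-/- 1 or β3-/- 3, 15 without β3-/- 2 and 4 with median-of-ratios scaling, and the sign of all 15 was negative in each. All genes that passed in spleen also varied, from 59 to 3837 with 1 library left out. In lung none of the 15 passed, and their sum was 240 to 371 FPKM in WT and 211 to 313 FPKM in β3-/- mice. The part of B cell content in the lower *Irf4*, *Slamf7* and *Tnfrsf13b* of spleen was not tested.

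**Figure D4:**
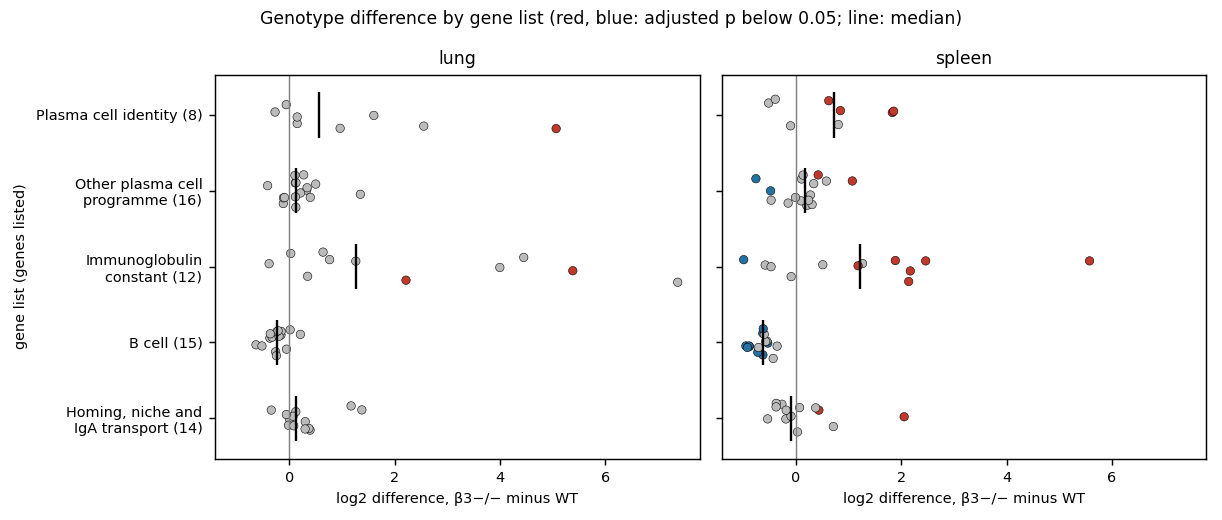
Log2 difference between β3-/- and WT mice of each gene in 5 lists, in lung (left) and spleen (right), with the median as a bar, red for genes that passed as higher and blue for those that passed as lower. The 8 plasma cell genes have medians of 0.56 in lung and 0.71 in spleen, and the 15 B cell genes have a median of −0.63 in spleen.

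Markers of other cells that carry some of the 8 genes were summed as well. NK cell markers summed to 57.4 to 86.0 FPKM in WT lungs and 106 to 140.4 FPKM in β3-/- lungs, T cell markers to 64.1 to 90.3 and 93.9 to 95.4 FPKM, and markers of plasmacytoid dendritic cells to 131 to 165 and 151 to 184 FPKM. The last sum was mostly *Bst2*, at 89.1 to 132 FPKM in WT and 116 to 136 FPKM in β3-/- lungs, so it says little of the other markers. None of the 10 T cell, 8 NK cell or 8 plasmacytoid dendritic cell markers passed in lung. At an unadjusted p below 0.05, 7, 4 and 2 of them were higher, as were 4.95% of all tested genes. The 2 were *Siglech* and *Ccr9*, with log2 differences of 1.10 (SE 0.16, adjusted p = 0.072) and 1.17 (SE 0.38, adjusted p = 0.29). *Siglech* had 2.22, 2.33 and 1.69 FPKM in WT and 4.24, 4.90 and 4.44 FPKM in β3-/- lungs. Of the 8 plasmacytoid dendritic cell markers, 2 had negative differences. In these lungs *Slamf7*, *Prdm1* and *Irf4* overlapped between the genotypes, while *Mzb1* did not. In spleen the T cell markers summed to 479 to 617 FPKM in WT and 351 to 481 FPKM in β3-/- mice. All 10 had negative differences (9 with median-of-ratios scaling), where the median of all tested genes was −0.16. At an unadjusted p below 0.05, 26.3% of all tested genes were lower, and so were 5 of the 10. Of these *Cd2*, an adhesion receptor, passed (−0.59, SE 0.11, adjusted p = 0.032), and for *Cd3d*, a chain of the T cell receptor complex, the effect in spleen was below that in lung by a log2 difference of −1.05 (SE 0.19, adjusted p = 0.045). NK cell markers summed to 136 to 154 and 110 to 149 FPKM in spleen, and none of the 8 passed there. The 9 macrophage and dendritic cell markers summed to 390.1 to 425 FPKM in WT and 473 to 527 FPKM in β3-/- spleens. This rise was not shared by the whole list. *Flt3*, *Itgax*, *Xcr1* and *Clec9a*, found on dendritic cells, had log2 differences of −0.42, −0.26, −0.26 and −0.02 in spleen, and none of these passed. Those of *Adgre1*, *Cd68*, *Csf1r*, *Mrc1* and *Marco* were positive. Of the 9, 2 passed as higher, where 3.66% of all tested genes did. *Mrc1*, the mannose receptor, had a log2 difference of 0.84 in spleen (SE 0.10, adjusted p = 0.011), above that in lung by 1.13 (SE 0.19, adjusted p = 0.038), and *Adgre1*, which encodes F4/80, had 0.54 in spleen (SE 0.10, adjusted p = 0.033). In spleen no T cell or macrophage and dendritic cell marker passed without WT 2 or without both libraries with pancreatic transcripts. Without WT 1, WT 3, β3-/- 1 or β3-/- 3 no T cell marker and 1 of the 9 passed, and *Cd3d* lost its difference between tissues with the mouse as a block. In both tissues, what these cells contribute to the level of a member was not tested.

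The members did not vary as a single group. With the mean of each tissue taken off, the correlation of log2 levels over the 12 libraries, which come from 6 mice, was 0.89 between *Jchain* and *Tnfrsf17* and 0.89 between *Jchain* and *Eaf2*, 0.78 between *Jchain* and *Mzb1*, 0.80 between *Sdc1* and *Prdm1*, and −0.54 between *Jchain* and *Irf4*. Among 13217 genes ranked by this measure, immunoglobulin genes were 36 of the 50 most like *Jchain*, 29 for *Eaf2*, 25 for *Tnfrsf17*, 8 for *Mzb1*, 1 for *Sdc1*, and 0 for *Prdm1*, *Irf4* and *Slamf7*. Of the 13217 genes, 12717 had a name and were neither immunoglobulin nor T cell receptor genes. How many of the rest were immunoglobulin genes was not counted. Of the named genes outside the immunoglobulins and the 8 members, those nearest to *Jchain* were *Calr* (0.97), *Tigit* (0.96), *Pdia6* (0.94), *Eif2s3x* (0.93) and *Il12rb2* (0.92). *Calr* and *Pdia6* encode proteins that fold others in the endoplasmic reticulum. Those nearest to *Tnfrsf17* were *Hsp90b1* (0.92), *Pdia6* (0.91), *Plaat3* (0.91), *Rpn2* (0.89) and *Nr4a3* (0.88), and those nearest to *Eaf2* were *Vps37b* (0.94), *Spp1* (0.94), *Ctla4* (0.93), *Sp140l2* (0.92) and *Lrg1* (0.91). *Fcrl5*, an Fc receptor-like protein of B lineage cells, was nearest to *Mzb1* (0.91), followed by *Rln3*, *Klk1b27*, *Acp5* and *Pdia4*. For *Sdc1* they were *Mxd1*, *Car4*, *Pabpc1*, *Frmd4a* and *Fcgr4*, for *Prdm1* *Gprc5a*, *Slc39a8*, *Sftpc*, *Sox7* and *Cyth3*, for *Irf4* *Riok1*, *Il5ra*, *Zbtb40*, *Rmi1* and *Rubcnl*, and for *Slamf7* *S1pr3*, *Gimap7*, *Dusp7*, *Gatd1* and *Slco2a1*. The libraries share mice, genotype and tissue, so these values describe likeness and carry no test.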

How the data were processed

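RNA of both organs from the same 3 WT and 3 β3-/- mice gave 12 libraries, each from a single organ of a single mouse. Per the labels, the authors used an RNeasy kit and a SMARTER mRNA kit, whereas the methods name TRIzol. Reads were trimmed with Trimmomatic, aligned to GRCm39 with HISAT2 and counted with featureCounts. The deposited values are FPKM made by the authors from these reads, and the tool that computed them is not given in the sources used here. The smallest value above 0 is 1e-06, so counts and the depth of each library are unknown, and precision rests on the spread between mice. The summed FPKM of a library ranged from 455850 to 489157 for lungs and from 494298 to 593175 for spleens.

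For lung 22479 gene IDs are listed and for spleen 22562, with 22117 in both. Of all IDs 22105 are Ensembl genes, and 22101 of these were found in GENCODE vM39, from which coordinates were taken. No libraries held identical values. Lung was marked by 9 epithelial and spleen by 8 splenic genes, all of which were higher in their own tissue in WT mice.

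Genes with at least 0.1 FPKM in at least 3 libraries were tested on log2(FPKM + 0.1) with limma-trend (limma 3.58.1, R 4.3.3), two-sided. This gave 15869 genes in lung, 15480 in spleen, 16312 for the difference of the genotype effect and 15816 between WT tissues. The p-values were adjusted over all of these by the Benjamini-Hochberg method, all adjusted p and SE in the text are from limma, and a gene passed at an adjusted p below 0.05. DESeq2, which the authors used, needs counts and was not run. An exact permutation test of 3 against 3 cannot give a p below 0.1.

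Lung and spleen libraries of the same number were taken as the same mouse, since both organs came from the same animals. The main fits between tissues had no term for the mouse and treated the libraries as independent. The mouse was a block only in an alternative. Deviations from the group means correlated by 0.10 to 0.18 between the tissues of β3-/- mice and by −0.01 to 0.04 in WT mice. The genes named are the 8 members, the listed genes that passed between genotypes or for the difference of the effect (up to 4 per list outside the immunoglobulins), and the 5 genes most like each member over the 12 libraries, among genes with at least 1 FPKM in at least 6. In lung the largest difference among the other plasma cell genes, the immunoglobulin constant genes and the plasmacytoid dendritic cell markers was named although it did not pass. The ratios, and other genes named outside the rule, were chosen after their values had been seen. The members and the lists were chosen with earlier results of these data known. Alternatives were pseudocounts of 1 and 0.01, no filter, a filter at 1 FPKM, TPM, median-of-ratios scaling, scaling without immunoglobulin genes, no trend, sample weights, the replicate number as a block, the *Ubb* group in lung, no pancreas library, and each library left out. Leaving out both spleen libraries with pancreatic transcripts was added after the data were seen. The steps were tested on simulated data.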

Additional observations from a re-analysis of the deposited data

Results flagged for a closer look

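The main fit over all 12 libraries had no term for the mouse. In it the interaction of tissue and genotype in limma passed for *Jchain* and *Mzb1*. For *Jchain* the effect in spleen minus that in lung was −3.24 on the log2 scale (SE 0.52, adjusted p = 0.035), with a rise in every β3-/- library of both tissues over every WT library of the same tissue. For *Mzb1* it was −1.07 (SE 0.18, adjusted p = 0.045), with all 3 β3-/- lungs above all WT lungs and overlapping spleens. Over 25 alternatives the adjusted p of *Jchain* was 4.2e-06 to 0.13, and it was lowest without WT lung 3, whose *Jchain* level was the highest of the WT lungs. That of *Mzb1* was 0.015 to 0.13. *Jchain* passed under 12 and *Mzb1* under 9 of the 25, and *Mzb1* did not pass with the mouse as a block. Groups of 3 libraries were too small for a test of single libraries that stand apart.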

How the results depend on the processing

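The members' log2 differences never changed sign where they passed. Of their values under the alternatives, 546 stayed on the same side of the threshold, 55 lost it and 13 gained it. In lung 1 member passed, 0 without the filter, 2 with sample weights and 0 to 1 with a library left out. In spleen 4 passed, 1 without the filter (*Sdc1*), 2 without the pancreas library, 1 without both pancreas libraries and 1 to 6 with a library left out, where all genes that passed numbered 1401, and 59 to 3837 with a library left out. For the difference between tissues 2 passed, 0 without the filter, 0 without trend, 1 with the *Ubb* group, 0 without the pancreas library, 0 without both and 0 to 3 with a library left out. Between WT lung and WT spleen 7 passed in each. Where no filter or trend was used, the cause of the change was not tested. FPKM without counts set no limit of detection, so the lowest members, *Tnfrsf17* and *Eaf2* in WT lung, rest on values of unknown depth.

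With the replicate number as a block, 1 member passed in lung, 5 in spleen (*Slamf7* gained, adjusted p = 0.0498), 1 for the difference between tissues (*Mzb1* lost) and 7 between WT tissues. Between genotypes the number is no pairing by origin, since same-numbered WT and β3-/- libraries correlated by −0.24 to 0.16 and only 1 of 6 lung and 3 of 6 spleen libraries correlated best with their own number. The block changed no other member's call.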

Other observations

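Genes for the homing, niche and transport of antibody-secreting cells were examined beside the 8 members. None of 13 tested passed in lung, where 4 were higher at an unadjusted p below 0.05, as were 4.95% of all tested genes. In spleen 2 rose and none fell, where 3.66% of all tested genes passed as higher and 5.39% as lower. *Ccr10*, a homing receptor of IgA plasma cells, had 0.403, 0.241 and 0.373 FPKM in WT spleens and 1.75, 1.39 and 2.01 FPKM in β3-/- spleens (log2 difference 2.05, SE 0.25, adjusted p = 0.012 from limma). Its effect in spleen exceeded that in lung by 1.93 (SE 0.34, adjusted p = 0.045). *Vcam1*, an adhesion molecule of stromal cells, rose by 0.44 in spleen (SE 0.10, adjusted p = 0.047). Over the alternatives 0 to 2 of the list were higher and 0 to 2 lower in spleen, with 1 higher and 2 lower under TPM, 1 higher without WT 1, WT 2, β3-/- 1 or β3-/- 3, and 0 higher without WT 3, without both pancreas libraries or without the filter. The difference of *Ccr10* between the tissues did not pass with the mouse as a block or without the pancreas library.

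Ratios between a plasma cell gene and its B cell counterpart separated the genotypes in spleen. They were chosen after the values had been seen and carry no test. *Tnfrsf17* divided by *Tnfrsf13b* was 0.0142 to 0.0288 in WT and 0.0881 to 0.178 in β3-/- spleens, and 0 to 0.0359 and 0.115 to 0.199 in lungs. *Prdm1* divided by *Bcl6*, which opposes it in B cells, was 0.170 to 0.254 in WT and 0.387 to 0.672 in β3-/- spleens, whereas in lungs the ranges of 0.233 to 0.349 and 0.240 to 0.321 overlapped.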
